A study of Drosophila melanogaster with 10 samples.

Results

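The genes described here encode the subunits of the mitochondrial respiratory chain, complexes I to IV and ATP synthase (complex V), in the nuclear and the mitochondrial genome. They were chosen by symbol alone, as protein-coding genes whose symbol begins with ND-, Sdh followed by A, B, C or D, UQCR-, COX followed by 4 to 8, ATPsyn or mt:. The rule gave 100 genes of the 14292 in the gene table, 87 nuclear and 13 mitochondrial. Of the nuclear genes, 40 belong to complex I, 7 to complex II, 9 to complex III, 16 to complex IV and 15 to complex V.

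Complex I takes electrons from NADH and complex II takes them from succinate, and both pass them through coenzyme Q to complex III. Cytochrome c carries them on to complex IV, which reduces oxygen. Complexes I, III and IV pump protons across the inner membrane, and complex V uses the resulting gradient to make ATP. All subunits of complex II are nuclear, whereas the other complexes combine nuclear subunits with a few core subunits encoded in mitochondrial DNA. Enterocytes, the absorptive cells of the fly midgut, transport nutrients across their membranes at the expense of ATP.

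RNA came from midguts of adult male Drosophila melanogaster that carried Dredd D44 on their only X chromosome. The mex>PGRP-LE group had mex-GAL4 over UAS-PGRP-LE, and the mex>+ group had mex-GAL4 over a chromosome without the transgene. Both groups carry the D44 mutation of Dredd, the caspase that relays peptidoglycan signals in the IMD immune pathway, and the comparison holds no group without it. PGRP-LE is a peptidoglycan receptor, and mex-GAL4 drives it in enterocytes, while the RNA is from all cells of the dissected midgut. Each group had 5 libraries, described as biological replicates, with RNA from 20 midguts. The flies ate only yeast, lived at 25 °C under 12 h of light per day and were dissected at 7 days of adult age. In whole-tissue RNA, fewer cells of a type and less RNA per cell cannot be told apart, which applies to every level below.

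Values are TPM (a transcript level scaled by transcript length and by the library total), summed per gene. PGRP-LE stood at 4534 ± 295 TPM in mex>PGRP-LE and 38.2 ± 2.33 TPM in mex>+ (SD, n = 5 each), so the libraries matched their labels. Genes that reached 1 TPM in 5 or more of the 10 libraries were compared as log2(TPM + 1) with limma, two-sided, with Benjamini-Hochberg adjustment over all 8722 tested genes and a threshold of 0.05. "Rose" and "fell" are kept for genes past that threshold, and changes are mex>PGRP-LE minus mex>+ on that log2 scale, with the standard error (SE). Of all tested genes, 40.1% were higher and 22.8% lower in mex>PGRP-LE, so a call of either kind (62.9% of genes) was common. After median-of-ratios rescaling, which shifts each library so that most genes balance, 31.6% were higher and 31.1% lower. Quantile normalization gave 34.2% higher and 29.4% lower, and scaling to the spike-ins 29.6% higher and 18.9% lower. The median change of all tested genes was 0.09 as deposited and -0.002 after that rescaling. Markers of intestinal progenitors differed between the groups: all 8 tested ones rose, with summed levels between 99.0 and 128 TPM in mex>PGRP-LE and between 25.6 and 35.2 TPM in mex>+. Libraries 4 and 5 of mex>PGRP-LE had more mitochondrial mRNA than libraries 1 to 3, and the changes of the mitochondrial genes without these libraries are given after the values of all 5.

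Most nuclear respiratory chain genes were higher in mex>PGRP-LE, and none of the 13 mitochondrial ones was past the test in that direction. Of the 67 nuclear genes tested, 51 rose (76.1%, against 40.1% of all tested genes) and 1, SdhA, fell. These nuclear genes had a median level of 220 TPM in mex>+, while genes from 1 TPM up were tested. The share among other genes of like level was not computed, so the part of level in the larger share was not tested. The median change of the 67 nuclear genes was 0.25, or 1.19-fold, with a range of -0.28 to 0.60. Of the 13 mitochondrial genes, 7 fell (53.8%, against 22.8% of all tested genes) and 6 did not pass the test, with a median of -0.30. After median-of-ratios rescaling, 36 nuclear genes were higher and 4 lower with a median of 0.16, and 0 mitochondrial genes were higher and 9 lower with a median of -0.37. Of all tested genes, 31.6% were then higher and 31.1% lower. The 5 mex>PGRP-LE libraries lay entirely above the 5 mex>+ libraries for 46 nuclear genes (31.3% of all tested genes did so) and entirely below for SdhA (17% of all tested genes). Of the 13 mitochondrial genes, 3 lay entirely below, beside the same 17% of all tested genes, and the groups overlapped for the other 10. The number of mitochondrial genes that fell was 4 without mex>PGRP-LE library 2, 4 without mex>+ library 3 and, a choice made after seeing the data, 4 without library 2 of both groups. The shares of all tested genes that were lower in these smaller fits are not given here. With all libraries that share was 22.8%. The difference between the 2 sets of genes was not tested as such.

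**Figure D1:**
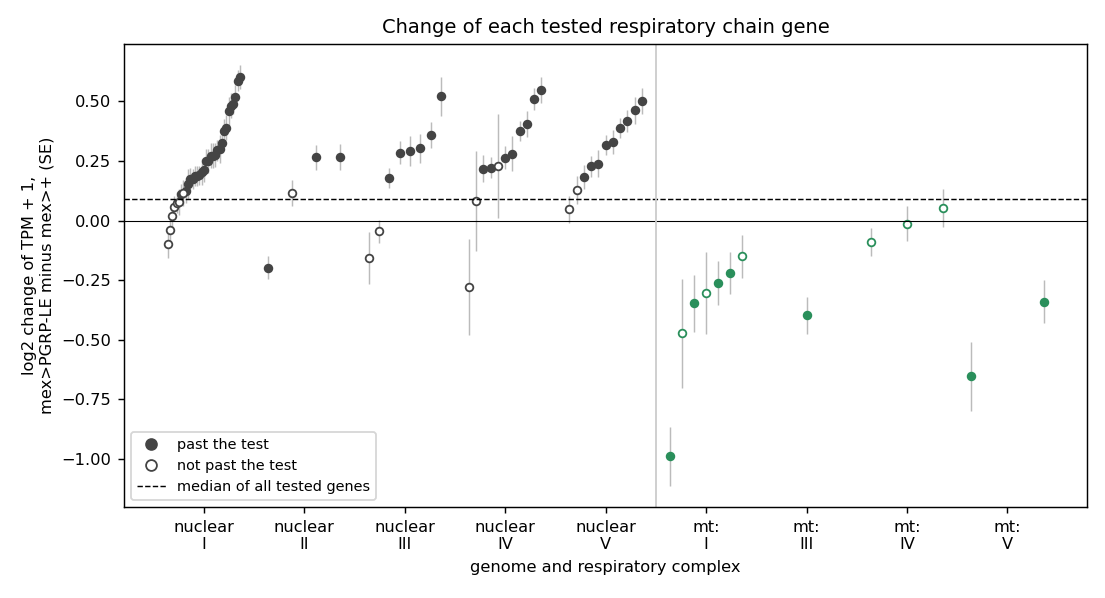
Log2 change of TPM + 1 (mex>PGRP-LE minus mex>+) with its SE for each of the 80 tested genes, by genome and complex, nuclear in grey and mitochondrial in green; filled points passed the limma test, and the dashed line is the median of all tested genes (0.09). All filled nuclear points but SdhA lie above 0, and all 7 filled mitochondrial points lie below it.

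The summed level of the nuclear genes was higher in every mex>PGRP-LE library than in any mex>+ library. It was 23768, 25064, 23100.1, 25026 and 24937 TPM in the 5 mex>PGRP-LE libraries, against 19940.5, 20361, 21662, 19715 and 18871 TPM in the 5 mex>+ libraries. The ratio of the means was 1.21. After rescaling by median of ratios, the sums ran from 21597 to 24970.3 in mex>PGRP-LE and from 19781 to 22504 in mex>+, so the groups overlapped. Scaled to the spike-ins they also overlapped, with 21392 to 26434 in mex>PGRP-LE and 19064 to 21785 in mex>+. Spike-ins, external RNAs added as standards, held 1.32% ± 0.147 of TPM in mex>PGRP-LE and 1.30% ± 0.0430 in mex>+ (SD, n = 5 each).

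The mitochondrial sum was 33377, 31564, 32655, 38743 and 39383 TPM in mex>PGRP-LE, against 37779.9, 38657, 41641, 38382 and 35121 TPM in mex>+. The groups overlapped, since libraries 4 and 5 of mex>PGRP-LE lay within the mex>+ range while libraries 1 to 3 lay below it. The ratio of nuclear to mitochondrial sums within a library, which no rescaling of the library changes, was 0.712, 0.794, 0.707, 0.646 and 0.633 in mex>PGRP-LE and 0.528, 0.527, 0.520, 0.514 and 0.537 in mex>+. Every mex>PGRP-LE library was above every mex>+ library by this ratio. The libraries hold polyA RNA, so a difference between groups in the capture of either set of mRNAs would also move the ratio, which was not tested.

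**Figure D2:**
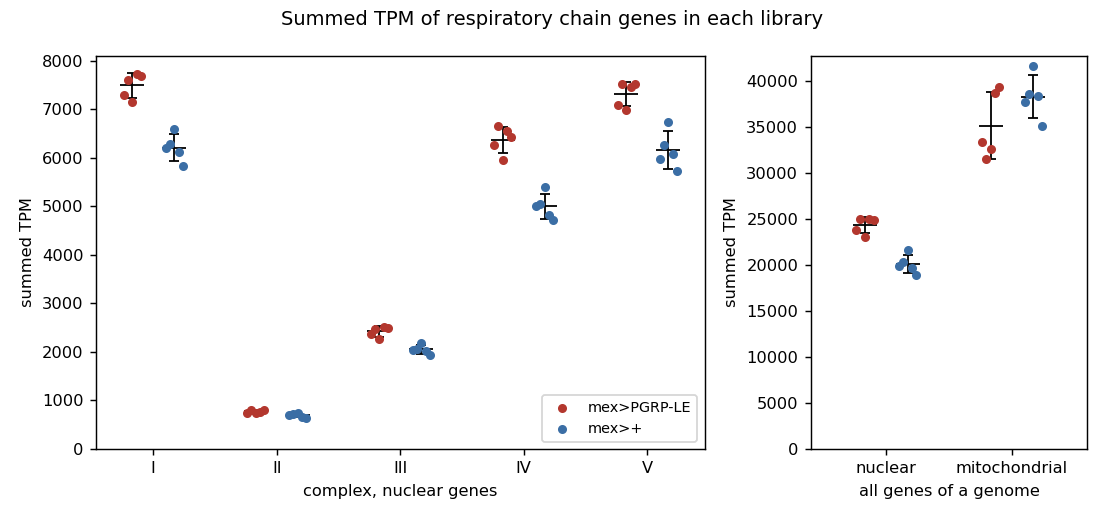
Summed TPM of the nuclear genes of each complex (left) and of all nuclear and all mitochondrial genes (right) in each library, mex>PGRP-LE in red and mex>+ in blue, with the mean and SD of 5 libraries. The groups do not overlap in any nuclear sum, and they overlap in the mitochondrial one.

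Complex I, the largest complex, had 33 tested nuclear genes, of which 26 rose, 0 fell and 7 did not pass the test, with a median change of 0.21. Over all tested genes, 40.1% were higher and 22.8% lower, which is to be read beside the counts of each complex. ND-B18 (FBgn0030605, chromosome X, 15063733 to 15064926, plus strand), an accessory subunit, had the largest change of the complex. Its level was 160.2, 188, 169, 167 and 178 TPM in mex>PGRP-LE, against 114, 110.4, 117, 115 and 109 TPM in mex>+. The groups were far apart, at 172 ± 10.7 TPM in mex>PGRP-LE and 113 ± 3.25 TPM in mex>+ (SD, n = 5 each), and the change was 0.60 ± 0.05 (limma adjusted p = 7.43e-07).

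The accessory subunit ND-13A (FBgn0031684, chromosome 2L, 5099177 to 5100288, minus strand) was at 157, 167, 160.2, 161 and 155 TPM in mex>PGRP-LE, against 112, 109.7, 107, 103 and 100.3 TPM in mex>+, a change of 0.59 ± 0.04 (adjusted p = 3.52e-07). ND-B14.5A (FBgn0025839, chromosome X, 2172526 to 2173432, plus strand) had 153, 159, 145, 157 and 152 TPM in mex>PGRP-LE, against 109.8, 108, 113, 104 and 97.2 TPM in mex>+, a change of 0.52 ± 0.05. Neither gene's groups overlapped. ND-15 (FBgn0031228, chromosome 2L, 114726 to 156030, plus strand) rose to 267, 272, 259, 286 and 273 TPM in mex>PGRP-LE, against 195, 189, 203, 193 and 186 TPM in mex>+, a change of 0.49 ± 0.04. The most abundant nuclear gene of complex I was ND-MLRQ (FBgn0052230, chromosome 3L, 23339326 to 23345936, plus strand), whose mammalian counterpart is now counted with complex IV. It had 1104, 1142, 1055, 1223 and 1151 TPM in mex>PGRP-LE, against 779, 817, 929.9, 802 and 798 TPM in mex>+, a change of 0.46 ± 0.06 (adjusted p = 2.57e-05). Even its highest mex>+ library, number 3, was below all 5 mex>PGRP-LE libraries.

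The 7 core subunits of complex I, which carry the flavin and the iron-sulfur clusters or the coenzyme Q site, had a median change of 0.17. Of them 5 rose and 2, ND-51 and ND-23, did not pass the test. ND-51 (FBgn0031771, chromosome 2L, 6060842 to 6062757, minus strand), which binds NADH, averaged 151 ± 3.29 TPM in mex>PGRP-LE and 155 ± 8.94 TPM in mex>+ (SD, n = 5 each; change -0.04 ± 0.05, adjusted p = 0.479). ND-75, the largest core subunit, averaged 129 ± 5.09 TPM in mex>PGRP-LE and 113 ± 2.91 TPM in mex>+, with a change of 0.19 ± 0.04 and groups that did not overlap. ND-24 averaged 117 ± 5.36 TPM in mex>PGRP-LE and 98.5 ± 5.84 TPM in mex>+, a change of 0.25 ± 0.05 and the largest of the core subunits. Of the 26 tested accessory subunits, 21 rose, with a median of 0.27. The difference between core and accessory subunits was not tested. The accessory genes that did not pass were ND-PDSW, ND-MNLL, ND-B14, ND-19 and ND-SGDH, whose changes ran from -0.10 to 0.12. After median-of-ratios rescaling, 16 nuclear complex I genes were higher and 2, ND-51 and ND-PDSW, lower.

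Complex II, succinate dehydrogenase, also works in the tricarboxylic acid cycle, and of its 4 tested genes 2 rose, 1 fell and 1 did not pass the test. SdhA (FBgn0261439, chromosome 2R, 19391863 to 19395971, minus strand), the flavoprotein that oxidises succinate, was the only tested nuclear gene that fell. It had 105, 112, 103, 102 and 111 TPM in mex>PGRP-LE, against 124, 129, 127, 116 and 116 TPM in mex>+. All mex>PGRP-LE libraries were below all mex>+ libraries, and SdhA fell by 0.20 (SE 0.05, adjusted p = 0.00347), though not past the threshold when libraries were scaled to the spike-ins (adjusted p = 0.0657). SdhB (FBgn0014028, chromosome 2R, 6807626 to 6809172, plus strand), the iron-sulfur subunit, had 165, 173, 155, 157 and 174 TPM in mex>PGRP-LE and 155, 155, 164, 145 and 142 TPM in mex>+, which overlapped (change 0.11 ± 0.05, adjusted p = 0.0849; without mex>+ library 3 it was 0.14, adjusted p = 0.0419).

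The membrane anchors of complex II, which hold its heme and coenzyme Q site, rose. SdhC (FBgn0037873, chromosome 3R, 11208887 to 11209849, minus strand) had 345, 380.5, 351, 372 and 395 TPM in mex>PGRP-LE, against 314, 313, 325, 294 and 287 TPM in mex>+, a change of 0.27 ± 0.05 (adjusted p = 0.000887). SdhD (FBgn0039112, chromosome 3R, 23759483 to 23760600, minus strand) had 124, 143, 123, 133 and 128 TPM in mex>PGRP-LE, against 109, 113, 112, 107 and 99.2 TPM in mex>+, a change of 0.27 ± 0.05 (adjusted p = 0.00102). The groups did not overlap for either anchor.

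Complex III had 8 tested nuclear genes, of which 6 rose and 2 did not pass the test, with a median of 0.29. The small subunit UQCR-14 (FBgn0030733, chromosome X, 16286288 to 16286988, plus strand) was the most abundant, with 573, 607, 541, 606 and 603 TPM in mex>PGRP-LE, against 463, 447, 491, 464 and 419.6 TPM in mex>+, a change of 0.36 ± 0.05 (adjusted p = 9.07e-05). Its whole transcript overlaps CG32576 on the other strand, so its level is uncertain if strand was not used in the quantification. UQCR-11 (FBgn0260008, chromosome 3L, 25120709 to 25126171, plus strand), the hinge protein that helps cytochrome c bind, had 361, 338, 340.1, 389 and 379.9 TPM in mex>PGRP-LE, against 308, 294, 317, 281 and 266 TPM in mex>+, a change of 0.30 ± 0.06. UQCR-6.4 (FBgn0034245, chromosome 2R, 17572096 to 17572784, minus strand) averaged 383 ± 36 TPM in mex>PGRP-LE and 312 ± 10.2 TPM in mex>+, a change of 0.29 ± 0.06. These small subunits were higher in every mex>PGRP-LE library than in any mex>+ library. UQCR-6.4 shares 227 exonic bases with POSH on the other strand, so its level is uncertain in the same way as that of UQCR-14. The larger core proteins UQCR-C1 and UQCR-C2, which do not carry electrons, had changes of -0.05 and 0.18. UQCR-C1 averaged 326 ± 14.6 TPM in mex>PGRP-LE and 337 ± 14.7 TPM in mex>+ and did not pass the test (change -0.05 ± 0.05, adjusted p = 0.416), and UQCR-C2 averaged 276 ± 11 TPM in mex>PGRP-LE and 244 ± 1.45 TPM in mex>+ and rose. After median-of-ratios rescaling UQCR-C1 was past the threshold on the lower side (-0.15) and UQCR-C2 was not past it.

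Complex IV, cytochrome c oxidase, had the highest median nuclear level, 551 TPM in mex>+, where the medians of complexes I, II, III and V were 151, 137, 302 and 396 TPM. Of its 11 tested nuclear genes, 8 rose, 0 fell and 3 did not pass the test, with a median of 0.26. COX7C (FBgn0040773, chromosome 2R, 10048353 to 10050066, plus strand) had 867, 922, 825, 916 and 890.0 TPM in mex>PGRP-LE, against 603, 622, 655, 597 and 549 TPM in mex>+, a change of 0.55 ± 0.05 (adjusted p = 3.34e-06). COX7A (FBgn0040529, chromosome 3R, 8339944 to 8341043, minus strand) had 729.8, 730.0, 707, 740.1 and 729 TPM in mex>PGRP-LE, against 513, 513, 560.2, 489 and 483 TPM in mex>+, a change of 0.51 ± 0.05 (adjusted p = 1.86e-06). Both are small single-span subunits at the edge of the enzyme, and neither had overlapping groups.

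COX8 (FBgn0263911, chromosome 3L, 21538859 to 21539447, minus strand), another small membrane subunit, had 708, 755, 678, 788 and 720.2 TPM in mex>PGRP-LE, against 538, 566, 601, 520.2 and 530.4 TPM in mex>+, a change of 0.40 ± 0.06. COX4 (FBgn0032833, chromosome 2L, 19958713 to 19960065, plus strand), a larger subunit through which adenine nucleotides regulate the mammalian enzyme, had 875, 872, 823, 837 and 855 TPM in mex>PGRP-LE, against 672, 659, 689.9, 634 and 632 TPM in mex>+, a change of 0.37 ± 0.04 (adjusted p = 8.94e-06). The groups stood apart for both. The most abundant nuclear gene of the complex, COX7B (FBgn0040793, chromosome 3L, 17425477 to 17426282, plus strand), had 971, 1115, 879, 1103 and 1010.1 TPM in mex>PGRP-LE and 843, 797, 931, 792 and 807 TPM in mex>+. Its groups overlapped, because mex>PGRP-LE library 3 was below mex>+ library 3. Its change of 0.28 ± 0.07 (adjusted p = 0.0047) was no longer past the threshold after median-of-ratios rescaling (0.18, adjusted p = 0.0759) or quantile normalization (adjusted p = 0.119).

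ATP synthase had 11 tested nuclear genes under these symbols, of which 9 rose and 2 did not pass the test, with a median of 0.32, the highest of the complexes. The genes of the membrane part that help the enzyme form dimers were among those that rose most. ATPsynE (FBgn0038224, chromosome 3R, 14326947 to 14327735, plus strand) had 528, 556, 529, 549 and 538 TPM in mex>PGRP-LE, against 365, 393, 426, 374 and 351 TPM in mex>+, a change of 0.50 ± 0.05 (adjusted p = 6.13e-06). ATPsynF (FBgn0035032, chromosome 2R, 24599088 to 24599821, minus strand) had 672, 737, 692, 737 and 708 TPM in mex>PGRP-LE, against 525, 532, 563, 532 and 500.2 TPM in mex>+, a change of 0.42 ± 0.05. ATPsynG (FBgn0010612, chromosome 2L, 10975522 to 10976399, minus strand) had 731, 748, 720.2, 752 and 724 TPM in mex>PGRP-LE, against 558, 563, 599.8, 554 and 535 TPM in mex>+, a change of 0.39 ± 0.04. None of the 3 had overlapping groups.

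All 4 genes of the peripheral stalk, which holds the catalytic head still, rose, with a median of 0.32. ATPsynD (FBgn0016120, chromosome 3R, 19095000 to 19096271, plus strand) moved most of them, with 527, 546, 516, 553 and 587 TPM in mex>PGRP-LE, against 391, 393, 442, 393 and 363 TPM in mex>+, a change of 0.46 ± 0.06 (adjusted p = 2.08e-05). Of the F1 genes, ATPsyngamma and ATPsyndelta rose by 0.23 and 0.24, while the catalytic subunit ATPsynbeta averaged 881 ± 40.8 TPM in mex>PGRP-LE and 808 ± 64.4 TPM in mex>+ (change 0.13 ± 0.06, adjusted p = 0.0801). ATPsyndelta shares 1358 exonic bases with CG2962 on the other strand, which makes its level uncertain. The most abundant nuclear gene of all, ATPsynC (FBgn0039830, chromosome 3R, 31216145 to 31219630, minus strand), encodes the subunit of the rotating ring, which is present in many copies per enzyme. It had 1661, 1817, 1635, 1734 and 1810.5 TPM in mex>PGRP-LE and 1609, 1716, 1876, 1638 and 1552 TPM in mex>+, and the groups overlapped (change 0.05 ± 0.06, adjusted p = 0.498).

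The 13 mRNAs of the mitochondrial genome together held 3.51% ± 0.364 of TPM in mex>PGRP-LE and 3.83% ± 0.233 in mex>+ (SD, n = 5 each), while the 87 nuclear genes held 2.44% ± 0.0896 in mex>PGRP-LE and 2.01% ± 0.102 in mex>+. Coordinates of these genes are on the mitochondrial genome of the annotation. The subunit of complex III, cytochrome b (mt:Cyt-b, 10499 to 11635, plus strand), fell, and it was past the test under all alternatives tried but quantile normalization (adjusted p = 0.0781). It had 3838, 3632, 3718, 4537 and 4585 TPM in mex>PGRP-LE, against 5385, 5307, 5819, 5262 and 4889 TPM in mex>+. The highest mex>PGRP-LE library was below the lowest mex>+ library, and mt:Cyt-b fell by 0.40 (SE 0.08, adjusted p = 0.000719).

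The 3 mitochondrial subunits of complex IV, which form its catalytic core, had the 3 changes closest to 0 of the mitochondrial genes, and none passed the test. mt:CoI (1474 to 3009, plus strand), which binds the hemes where oxygen is reduced, had 8786, 8459, 8801, 10170.5 and 10697 TPM in mex>PGRP-LE and 9096, 9617, 10226, 9568 and 8705 TPM in mex>+, a change of -0.01 ± 0.07 (adjusted p = 0.884). mt:CoII (3083 to 3767, plus strand), which receives electrons from cytochrome c, had 4822, 4743, 4699.6, 5936 and 5819 TPM in mex>PGRP-LE and 4796, 5166, 5431, 5005 and 4592 TPM in mex>+, a change of 0.05 ± 0.08. mt:CoIII (4736 to 5524, plus strand) had 9609, 9119, 9758, 10713 and 10806 TPM in mex>PGRP-LE and 10388, 10754, 11441, 10721 and 9856 TPM in mex>+, a change of -0.09 ± 0.06. The groups overlapped for each, and the calls moved with scaling: mt:CoIII was lower after median-of-ratios rescaling (-0.19), and quantile normalization put mt:CoI and mt:CoII past the threshold on the higher side (0.26 and 0.28).

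Of the 7 mitochondrial genes of complex I, which encode its proton-pumping membrane arm, 4 fell and 3 did not pass. mt:ND4L (9545 to 9835, minus strand) had the largest change of all 80 tested genes. It had 14, 17.4, 18.1, 22.4 and 22.1 TPM in mex>PGRP-LE, against 44.6, 34.7, 36, 41.8 and 33.3 TPM in mex>+. The groups did not overlap, and mt:ND4L fell by 0.99 (SE 0.13, adjusted p = 3.64e-05), to 0.503 times the mex>+ level on the TPM + 1 scale. The annotation joins its end to mt:ND4 by 1 shared base, and the 2 are known to lie on 1 mRNA in animals, so the split of reads between them is uncertain. mt:ND4 (8207 to 9545, minus strand) had 732, 658, 696, 857 and 867 TPM in mex>PGRP-LE and 865, 835, 955, 816 and 746 TPM in mex>+, with overlapping groups (change -0.15 ± 0.09, adjusted p = 0.156). It was past the threshold on the lower side after median-of-ratios rescaling (-0.25, adjusted p = 0.0316) and after quantile normalization (-0.31, adjusted p = 0.0218). Without libraries 4 and 5 of mex>PGRP-LE, left out because of their high mitochondrial levels, mt:ND4 was also past it (-0.28, adjusted p = 0.0116).

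mt:ND5 (6409 to 8125, minus strand) had 514, 437, 456, 649 and 649 TPM in mex>PGRP-LE and 699.7, 658, 767, 680.3 and 601 TPM in mex>+, and fell by 0.35 (SE 0.12, adjusted p = 0.0238). mt:ND3 (5608 to 5961, plus strand) had 828, 774, 775, 1032 and 1010.1 TPM in mex>PGRP-LE and 982, 1067, 1137, 1114 and 970.2 TPM in mex>+, and fell by 0.26 (adjusted p = 0.0248). mt:ND1 (11721 to 12659, minus strand) had 1187, 1009.9, 1045, 1300.0 and 1388 TPM in mex>PGRP-LE and 1428, 1391, 1472, 1352 and 1229 TPM in mex>+, and fell by 0.22 (adjusted p = 0.046). For these 3 genes, libraries 4 and 5 of mex>PGRP-LE reached into the mex>+ range and libraries 1 to 3 did not. Their calls were lost when single libraries were left out. The call on mt:ND1 was lost without library 1, 2 or 3 of mex>PGRP-LE or library 1, 2, 3 or 4 of mex>+, with changes of -0.23 to -0.17. With all libraries kept, it was also lost after scaling to the spike-ins (limma adjusted p = 0.0538) and without the level filter (adjusted p = 0.0702). The same held without the trend and robust settings of limma (adjusted p = 0.055). The call on mt:ND3 was lost without library 1, 2 or 3 of mex>PGRP-LE or library 3 or 4 of mex>+ (-0.24 to -0.22), and that on mt:ND5 without library 2 or 3 of mex>PGRP-LE or library 3 of mex>+ (-0.30 to -0.28). mt:ND2 (240 to 1263, plus strand) had 5.16, 6.06, 5.01, 13.2 and 8.92 TPM in mex>PGRP-LE and 11.8, 9.59, 11.7, 10.4 and 8.65 TPM in mex>+ (change -0.47 ± 0.23, adjusted p = 0.0965). mt:ND6 (9971 to 10495, plus strand) had 0.718, 1.26, 2.39, 1.38 and 1.75 TPM in mex>PGRP-LE and 1.36, 1.71, 2.19, 2.45 and 2.52 TPM in mex>+ (change -0.30 ± 0.17, adjusted p = 0.143). The means of both were the lowest of the 13, and the standard errors the largest. Leaving out 1 library put mt:ND2 past the threshold without mex>PGRP-LE library 4 (-0.67, adjusted p = 0.00275) and mt:ND6 without mex>PGRP-LE library 3 (-0.42, adjusted p = 0.0331). mt:ND2 was also past it with array weights (-0.56, adjusted p = 0.0352) and with scaling to the spike-ins (-0.50, adjusted p = 0.028).

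Both mitochondrial genes of ATP synthase fell. mt:ATPase6 (4062 to 4736, plus strand), the subunit through which protons pass, had 3015, 2689, 2659.7, 3497 and 3509 TPM in mex>PGRP-LE and 4053, 3784, 4308, 3775 and 3458 TPM in mex>+, and fell by 0.34 (SE 0.09, adjusted p = 0.0062). mt:ATPase8 (3907 to 4068, plus strand) had 26.7, 18.6, 21.5, 13.5 and 20.5 TPM in mex>PGRP-LE, against 28.5, 30.8, 35.3, 34.2 and 29.6 TPM in mex>+, and fell by 0.65 (SE 0.14, adjusted p = 0.00228). The groups overlapped for mt:ATPase6 and did not for mt:ATPase8. The 2 genes overlap by 7 bases and are also known to share an mRNA, so their separate levels are uncertain. Without the mex>PGRP-LE libraries 4 and 5, a choice made after seeing the data, 10 of the 13 mitochondrial genes were lower with a median of -0.41, and 48 nuclear genes were higher. The shares of all tested genes in that fit are not given here. Libraries 4 and 5 had the highest mitochondrial sums of their group. Leaving them out lowers the group's mitochondrial sum by the choice itself, so calls gained in this way are not further support. The genes that gained a call were mt:ND2 (-0.83, adjusted p = 9.83e-05), mt:ND4 (-0.28) and mt:CoIII (-0.16, adjusted p = 0.0319). Without those libraries the other genes past the threshold were mt:ND4L (-1.16), mt:ND5 (-0.54), mt:Cyt-b (-0.51), mt:ATPase8 (-0.50), mt:ATPase6 (-0.47), mt:ND3 (-0.41) and mt:ND1 (-0.35). mt:CoI (-0.12), mt:CoII (-0.07) and mt:ND6 (-0.35) were not past it.

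As shares of the mitochondrial mRNA pool, which removes the total of each library, several genes stood apart. mt:Cyt-b made up 11.5% ± 0.128 of the summed mitochondrial TPM in mex>PGRP-LE and 13.9% ± 0.221 in mex>+ (SD, n = 5 each). mt:ATPase6 made up 8.73% ± 0.387 in mex>PGRP-LE and 10.1% ± 0.414 in mex>+. These shares were lower in every mex>PGRP-LE library, and so were those of mt:ND5 (1.53% in mex>PGRP-LE and 1.78% in mex>+) and mt:ND4L (0.0533% in mex>PGRP-LE and 0.0996% in mex>+). mt:CoI made up 26.7% ± 0.397 in mex>PGRP-LE and 24.6% ± 0.348 in mex>+, and mt:CoII 14.8% ± 0.392 in mex>PGRP-LE and 13.04% ± 0.238 in mex>+, both higher in every mex>PGRP-LE library. The share of mt:Cyt-b was 11.5%, 11.5%, 11.4%, 11.7% and 11.6% in libraries 1 to 5 of mex>PGRP-LE, highest in libraries 4 and 5, and the lowest share in mex>+ was 13.7%. The groups overlapped for the shares of the other 7 genes, mt:CoIII among them, at 28.5% ± 0.999 in mex>PGRP-LE and 27.8% ± 0.262 in mex>+. Shares of one pool are bound to each other, so a rise in one share and a fall in another are not separate results.

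**Figure D3:**
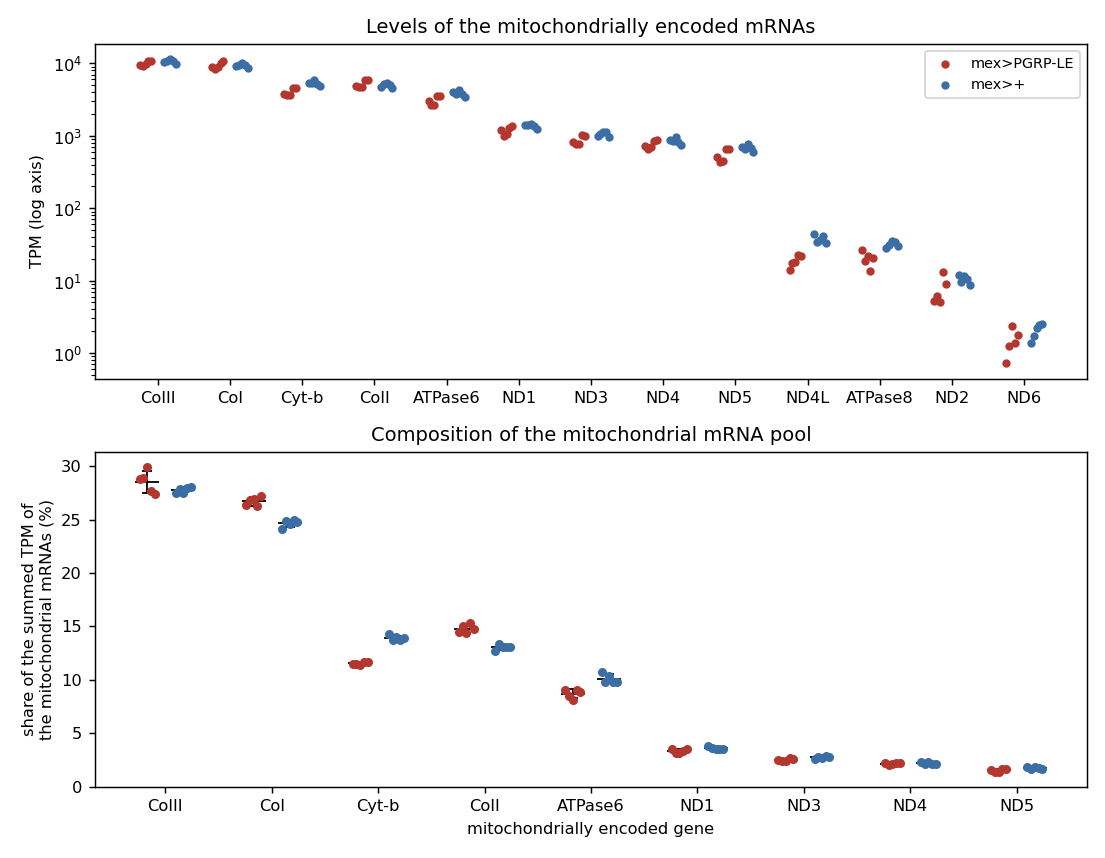
Level of each mitochondrial mRNA in each library in TPM on a log axis (top), and the share of the 9 most abundant ones in the summed mitochondrial TPM with mean and SD of 5 libraries (bottom), mex>PGRP-LE in red left of mex>+ in blue. The mt:Cyt-b share is 11.5% in mex>PGRP-LE against 13.9% in mex>+, while levels of mt:ND4L in mex>PGRP-LE lie below every mex>+ value.

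The order of levels was nearly the same in both groups. In mex>PGRP-LE it ran mt:CoIII, mt:CoI, mt:CoII, mt:Cyt-b, mt:ATPase6, mt:ND1, mt:ND3, mt:ND4, mt:ND5, mt:ATPase8, mt:ND4L, mt:ND2 and mt:ND6 from high to low. In mex>+ mt:Cyt-b stood before mt:CoII, and mt:ND4L before mt:ATPase8. In both groups the top neighbours mt:CoIII and mt:CoI overlapped between libraries, and so did mt:ND4L and mt:ATPase8. In mex>PGRP-LE mt:ND1 overlapped mt:ND3 and mt:ND3 overlapped mt:ND4, while in mex>+ mt:Cyt-b overlapped mt:CoII and mt:ND4 overlapped mt:ND5. All other neighbours were apart. By strand, 4 of 9 genes of the plus strand and 3 of 4 of the minus strand fell, where 22.8% of all tested genes were lower.

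The changes of the nuclear genes differed with transcript length, and so did those of other genes. Respiratory chain mRNAs are short: 56 of the 67 tested nuclear genes had transcripts of at most 1000 nucleotides (nt), of which 45 rose (80.4%), with a median of 0.27. Among the 1677 other tested genes of that length, 53.8% were higher, 15% were lower and the median change was also 0.27. Of the 11 longer nuclear genes, 6 rose and 1 fell, with a median of 0.18, where 36.6% of other genes over 1000 nt were higher and the median was 0.06. The share of genes past the test was therefore larger among respiratory chain genes than among other short genes, but the median size of change was not. In the range of 500 to 700 nt the median was 0.36 for 21 respiratory chain genes and 0.27 for 489 others, and from 700 to 1000 nt it was 0.20 for 17 and 0.27 for 928. After median-of-ratios rescaling 33 of the 56 short genes were higher (58.9%), against 46.5% of other short genes, and both medians were 0.17. Across genes within the same fit, Spearman's rho of change with length was -0.38 over the 67 nuclear genes and -0.21 over all 8722, a description of genes that share libraries and are not independent. What length had to do with the changes was not tested.

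**Figure D4:**
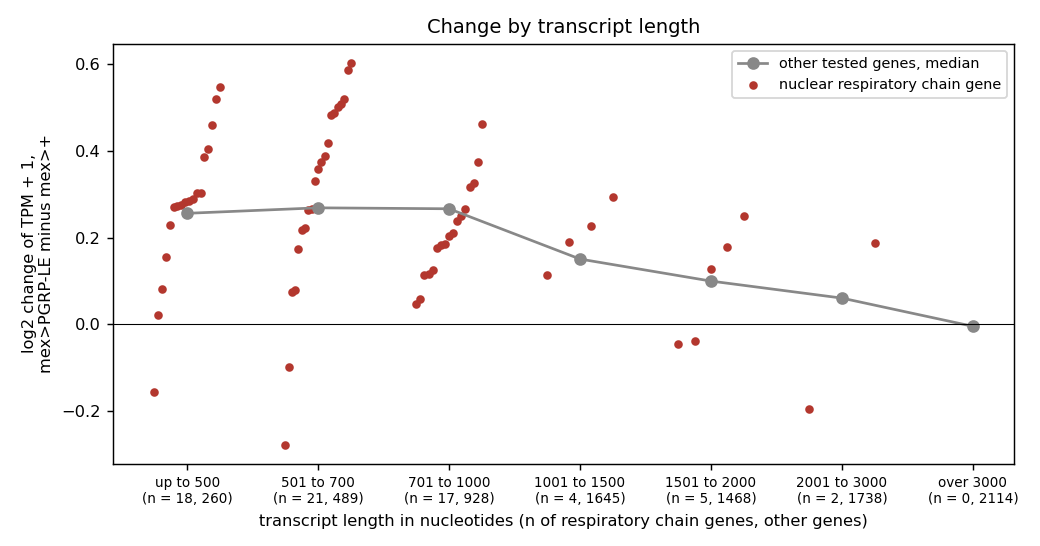
Log2 change (mex>PGRP-LE minus mex>+) by transcript length in nucleotides for the 67 tested nuclear genes (red points, sorted within a bin) and the median of other tested genes in the same bin (grey). Short genes of both kinds have positive medians, and the grey median falls to about 0 above 3000 nt.

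The nuclear genes differed widely in level. A mean of at least 50 TPM was reached by 62 genes, all tested, of which 50 rose and 1 fell. The other 25 were below it, COX7AL2 the highest of them, and all but 1 of them, ND-B8, carry a name ending in L, with or without a number, which marks a copy like the main gene. Many such copies are known for expression in the testis of Drosophila. Of the 25, 20 did not meet the level for testing, 7 were listed at 0 in all 10 libraries, and the highest single value among these 20 was 1.31 TPM. Testis markers were close to absent: 5 of 12 were listed at 0 in all libraries, and their sum ran from 0.198 to 0.459 TPM in mex>PGRP-LE and from 0.214 to 0.429 TPM in mex>+.

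Of the 5 low copies that were tested, 1 rose. UQCR-11L (FBgn0050354, chromosome 2R, 8677219 to 8677661, plus strand) had 5.14, 4.41, 5.60, 5.27 and 4.29 TPM in mex>PGRP-LE, against 2.77, 2.76, 3.47, 3.42 and 3.27 TPM in mex>+, a change of 0.52 ± 0.08 (adjusted p = 0.000169). UQCR-6.4L (FBgn0262842, chromosome 3L, 16566750 to 16567300, plus strand) had 9.25, 10.01, 8.56, 7.86 and 9.58 TPM in mex>PGRP-LE and 9.13, 11.1, 13.3, 8.14 and 9.87 TPM in mex>+ (change -0.16 ± 0.11, adjusted p = 0.228), while UQCR-6.4 rose. COX7CL (FBgn0265342, chromosome 2R, 10050348 to 10050874, plus strand) had 0.664, 1.87, 3.25, 2.45 and 1.86 TPM in mex>PGRP-LE and 1.13, 2.16, 1.39, 1.25 and 1.48 TPM in mex>+ (change 0.23 ± 0.22, adjusted p = 0.378). Without mex>PGRP-LE library 1 it was past the threshold (0.43, adjusted p = 0.024). It lies just beside COX7C. COX6AL and COX7AL2 averaged 1.58 ± 0.762 TPM in mex>PGRP-LE and 2.04 ± 0.462 TPM in mex>+, and 15.7 ± 4.56 TPM in mex>PGRP-LE and 14.4 ± 2.53 TPM in mex>+, with adjusted p of 0.251 and 0.749. The overlap of groups was wide for these 4. Copies that share sequence with an abundant gene may share reads with it, so their levels are uncertain.

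Transcript forms were compared by their share of each gene. Of the 52 tested genes with more than 1 annotated transcript, 4 had a transcript whose mean share of the gene's TPM moved by over 5 percentage points, and for 2 of them, ND-15 and ND-20, the groups did not overlap. Smaller moves without overlap stood in other genes, among them ATPsynE, ATPsynF, ATPsynG, COX4 and COX5A. Transcript shares of genes outside the respiratory chain were not computed, so how common such moves were among all genes is unknown. In ND-15 the 486-nt transcript FBtr0078117 made up 40.6% ± 1.99 in mex>PGRP-LE and 65.8% ± 1.48 in mex>+ (SD, n = 5 each). The 623-nt transcript FBtr0078118 made up 38.7% ± 2.52 in mex>PGRP-LE and 22.4% ± 1.40 in mex>+, and the 507-nt FBtr0301887 18.5% ± 1.87 in mex>PGRP-LE and 10.3% ± 0.613 in mex>+. In TPM, FBtr0078118 was between 93.9 and 112 in mex>PGRP-LE and between 39.1 and 46.3 in mex>+, while FBtr0078117 was between 97.7 and 120.8 in mex>PGRP-LE and between 121.4 and 133 in mex>+. FBtr0078118 and FBtr0301887 were thus higher in every mex>PGRP-LE library than in any mex>+ library, and FBtr0078117 was lower in every one. In ND-20, a core subunit of complex I, the 897-nt FBtr0074152 made up 27.1% ± 2.15 in mex>PGRP-LE and 17.8% ± 2.08 in mex>+. Transcripts of one gene share most of their bases, so these shares are estimates of the quantification, and they were not tested.

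Other genes of the pathway were counted by list. The counts of every list, markers included, are to be read beside the 40.1% of all tested genes that were higher and the 22.8% that were lower. Counts after median-of-ratios rescaling are to be read beside 31.6% higher and 31.1% lower. Among 10 tested genes listed with the respiratory chain whose symbols the rule misses, 8 rose, 0 fell and the median was 0.29, close to the 0.25 of the nuclear genes under the rule. Not all of the 10 are subunits, since Cyt-c-p is among them. The electron carrier Cyt-c-p averaged 544 ± 42.8 TPM in mex>PGRP-LE and 371 ± 22.6 TPM in mex>+ (SD, n = 5 each; change 0.55 ± 0.06). The epsilon subunit of ATP synthase, sun, averaged 498 ± 18.3 TPM in mex>PGRP-LE and 358 ± 20.1 TPM in mex>+ (change 0.48 ± 0.05), and ox, a small subunit of complex III, 513 ± 20.4 TPM in mex>PGRP-LE and 373 ± 24.1 TPM in mex>+ (change 0.46 ± 0.05).

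Of 13 tested genes listed as assembly factors, 11 rose and 0 fell, with a median of 0.39, and 11 were higher and 1, Cox10, lower after median-of-ratios rescaling. Cox17, which delivers copper to complex IV, averaged 107 ± 5.69 TPM in mex>PGRP-LE and 58.1 ± 3.02 TPM in mex>+, a change of 0.87 ± 0.05 (adjusted p = 5.65e-08). OXA1L, which inserts subunits into the inner membrane, averaged 20.5 ± 0.896 TPM in mex>PGRP-LE and 12.5 ± 0.903 TPM in mex>+ (change 0.67 ± 0.06). NP15.6, which is known as a complex I subunit rather than an assembly factor, averaged 255 ± 3.37 TPM in mex>PGRP-LE and 176 ± 11.4 TPM in mex>+ (change 0.54 ± 0.05). Of 7 tested mitochondrial chaperones and proteases, 5 rose and 1 fell. The chaperonin Hsp60A averaged 174 ± 7.45 TPM in mex>PGRP-LE and 103 ± 2.93 TPM in mex>+ (change 0.75 ± 0.04) and CG11267, its small partner, 156 ± 15.8 TPM in mex>PGRP-LE and 99.1 ± 7.20 TPM in mex>+ (change 0.65 ± 0.07), whereas the protease subunit ClpX averaged 42.8 ± 3.24 TPM in mex>PGRP-LE and 69 ± 6.45 TPM in mex>+ (change -0.67 ± 0.07).

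Of 18 genes that copy, transcribe and process mitochondrial DNA and RNA, 11 were higher and 3 lower, with a median of 0.24. Of all tested genes, 40.1% were higher and 22.8% lower. TFAM, which packages mitochondrial DNA, averaged 37.7 ± 4.07 TPM in mex>PGRP-LE and 25.6 ± 1.56 TPM in mex>+ (change 0.54 ± 0.07). mtSSB, the single-strand binding protein of its replication, averaged 37.8 ± 3.62 TPM in mex>PGRP-LE and 25 ± 3.55 TPM in mex>+ (change 0.58 ± 0.09), and the mitochondrial poly(A) polymerase MTPAP 17.4 ± 0.750 TPM in mex>PGRP-LE and 10.9 ± 1.26 TPM in mex>+ (change 0.63 ± 0.07). Among the 3 that fell was the mitochondrial RNA polymerase PolrMT, named after its values were seen, at 5.29 ± 0.265 TPM in mex>PGRP-LE and 7.32 ± 0.850 TPM in mex>+ (change -0.40 ± 0.07). mtTFB1 and Ccdc56, an assembly factor, are annotated on transcripts with the same start and end and had identical values, so they are not separate results. Of 8 listed regulators of nuclear respiratory genes, 2 rose and 3 fell. The 3 with the smallest p were ERR, a nuclear receptor of energy metabolism (change -0.72 ± 0.08), the transcription factor foxo (change -0.65 ± 0.06) and sima, the fly hypoxia-inducible factor (change -0.52 ± 0.05), and all fell. After median-of-ratios rescaling 1 regulator was higher and 4 lower.

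The tricarboxylic acid cycle feeds the chain with electrons. Of 18 tested genes of pyruvate dehydrogenase and the cycle, 3 rose and 6 fell, with a median of -0.02. Idh, the NADP-dependent isocitrate dehydrogenase and not one of the Idh3 genes, averaged 557 ± 32.5 TPM in mex>PGRP-LE and 989.8 ± 86.4 TPM in mex>+, and fell by 0.83 (SE 0.07). Of the Idh3 genes, Idh3b rose (0.52 ± 0.06), and Idh3a and Idh3g did not pass the test. Pdk, the kinase that inhibits pyruvate dehydrogenase, averaged 64 ± 5.94 TPM in mex>PGRP-LE and 104 ± 4.68 TPM in mex>+ (change -0.70 ± 0.06), and ScsbetaG, a subunit of succinyl-CoA synthetase, 93.4 ± 4.38 TPM in mex>PGRP-LE and 57.8 ± 2.94 TPM in mex>+ (change 0.68 ± 0.05). Of 12 carrier and membrane-shape genes, 4 rose and 5 fell. The mitochondrial fission protein Drp1 changed by 0.42 ± 0.04, the pyruvate carrier Mpc1 by -0.39 ± 0.05 and the phosphate carrier Mpcp1 by -0.67 ± 0.10. Of 12 tested genes of other electron entry and coenzyme Q, 4 rose and 2 fell, among them Coq6 (0.70 ± 0.09) and Coq9 (0.49 ± 0.06) of coenzyme Q synthesis and Etfb (-0.37 ± 0.04), which takes electrons from fat oxidation. After median-of-ratios rescaling that list had 2 higher and 5 lower. The same rescaling gave 3 higher and 9 lower for the cycle, and 3 higher and 6 lower for carriers and membrane shape. Over all tested genes it also shifted the balance, from 40.1% higher and 22.8% lower to 31.6% higher and 31.1% lower.

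**Figure D5:**
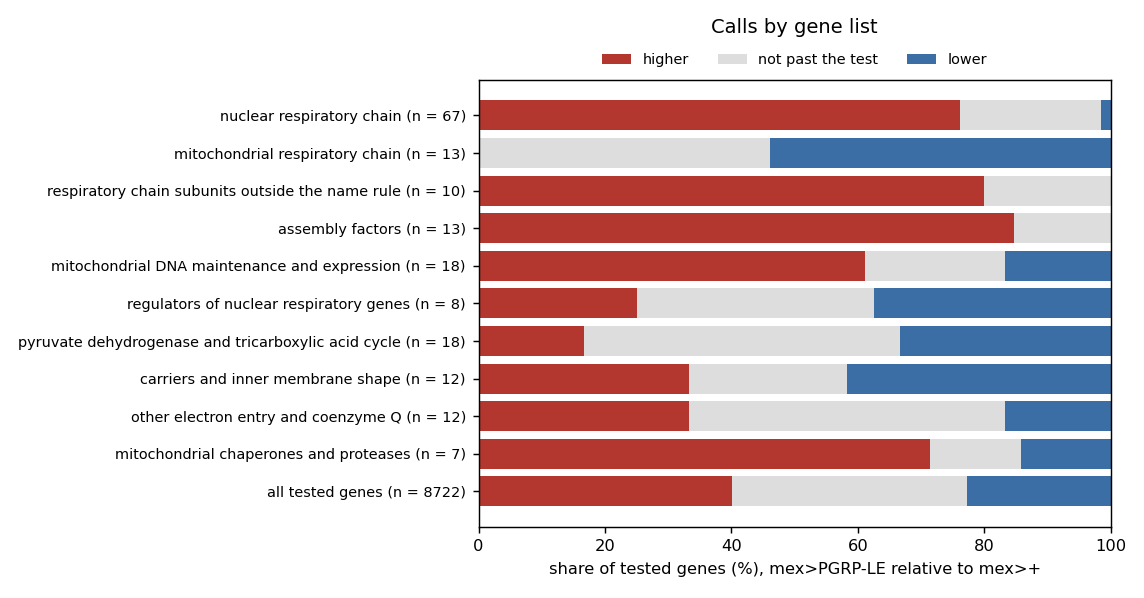
Share of tested genes of each list that were higher, not past the test or lower in mex>PGRP-LE relative to mex>+, in percent, with all 8722 tested genes at the bottom. Nuclear respiratory chain genes (76.1% higher), the listed genes outside the name rule and assembly factors stand above the 40.1% of all tested genes. So do mitochondrial DNA maintenance and expression (11 of 18 higher) and mitochondrial chaperones and proteases (5 of 7 higher). The mitochondrial respiratory chain genes have 53.8% lower.

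Markers of other cells were read beside these counts. Of 7 enterocyte markers 3 rose and 4 fell, with sums between 22478.5 and 23957 TPM in mex>PGRP-LE and between 27750.3 and 33112 TPM in mex>+. Amy-p, a digestive amylase, had the smallest p among them and changed by -1.10 ± 0.08. The progenitor marker esg changed by 1.27 ± 0.06, with 21.7 ± 1.39 TPM in mex>PGRP-LE and 8.40 ± 0.653 TPM in mex>+. Visceral muscle, which is rich in mitochondria, had 0 of 11 markers higher and 5 lower, bt among them (-0.33 ± 0.08), with sums between 2819.9 and 3555 TPM in mex>PGRP-LE and between 2883 and 3595 TPM in mex>+. Of 10 enteroendocrine markers 2 rose, CCHa1 among them (0.59 ± 0.08), and 2 fell, with sums between 733 and 818 TPM in mex>PGRP-LE and between 719 and 823 TPM in mex>+. Of the tested markers of Malpighian tubules and fat body, 3 each, none passed the test (Oatp58Dc -1.25 ± 0.50, adjusted p = 0.0562; fon -0.62 ± 0.37, adjusted p = 0.17). Of 4 tracheal markers 2 fell, Gasp among them, of 2 tested haemocyte markers srp fell and Pxn rose, and of 4 neuronal markers 2 rose, Appl among them, and 1 fell. The part of progenitors and of enterocytes in the respiratory chain values was not tested.

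The authors' deposited table, made by gene with RUVSeq named in its title, lists 74 of the nuclear genes and all 13 mitochondrial ones. There, in the authors' deposited table, the log2 fold change was positive for 66 of the 74 nuclear genes, with a median of 0.25, and 12 of the 13 mitochondrial ones were negative, with a median of -0.34. Over all 10682 genes of the authors' deposited table, 6123 were positive and 4559 negative, and the median was 0.08. It rests on the same libraries, so it is another processing of these data and not a further experiment. For mt:ND4L the authors' deposited table gives -1.04, for mt:Cyt-b -0.41, for SdhA -0.22 and for ND-B18 0.59.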

How the data were processed

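Midgut polyA RNA was sequenced from 5 mex>PGRP-LE and 5 mex>+ libraries with a stranded kit, per the labels' protocols. The authors deposited TPM per transcript, spike-ins included, and kallisto, Trim Galore, FastQC, edgeR and the build BDGP6 are named in the submitters' processing notes. Whether strand was used in the quantification is not stated, and 31 of the tested nuclear genes share exonic bases with another protein-coding gene, 28 of them on the opposite strand. The overlaps named above are not all of them. COX7C shares 134 bases with oys on the opposite strand, and ND-MNLL shares 720 with CG45089 on the same strand, where strand would not separate the reads. Depth cannot be read from TPM and is unknown here, so values carry no counting interval. The authors also deposited a table of log2 fold changes and p-values per gene; its header does not state the base of the logarithm, and log2 is assumed because edgeR writes it. No p-value of that table is printed.

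From the TPM, 31048 of 31181 rows were matched to genes with Ensembl release 115 of BDGP6.54, which also gave coordinates and lengths (exonic length of transcripts weighted by mean TPM); 92 rows were spike-ins and 41 were unmatched and not used. The test was limma 3.58.1 (lmFit, eBayes with trend and robust) in R 4.3.3 on log2(TPM + 1), a scale that understates changes of low genes, and it was tested on simulated data. Replicate numbers were not taken as pairs: deviations correlated above 0.1 in 1 of 5 same-numbered pairs. That pair was replicate 2, at 0.57, the highest of all pairs of libraries across the groups, so fits without replicate 2 of both groups and with a replicate block were also made. Alternatives were other pseudocounts, filters, scalings, weights, a replicate block, 1 factor of unwanted variation and leaving out each library.

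Genes and lists were chosen with earlier results of these data known, so they are not independent of them. Genes named were PGRP-LE, all mitochondrial genes, the most abundant and the 4 most changed nuclear genes of each complex, tested copies with their partners, the 3 genes of smallest p of each other list and 1 of each marker list; others were named after their values were seen. The listed genes Ecsit, Cox15 and Dl were not analysed here.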

Additional observations from a re-analysis of the deposited data

Results flagged for a closer look

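In mex>+ library 3, ND-MLRQ stood at 929.9 TPM while the other 4 mex>+ libraries were between 779 and 817 TPM, a gap of 0.75 of the range of the group. It was the 1 group of 5 libraries with a library apart among 100 examined, where chance marks about 1 in 20. The same library had the highest nuclear and mitochondrial sums of its group, 21662 and 41641 TPM. Without it, ND-MLRQ was past the test in the same direction.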

How the results depend on the processing

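Over 39 named respiratory chain genes and their alternatives, 932 comparisons in all, 890 kept their side of the threshold, with no sign change of a called value, 27 lost the call, 14 gained one and 1 reversed: mt:CoI was 0.26 (adjusted p = 0.00797) after quantile normalization. The nuclear genes called higher numbered 35 to 53 under all alternatives. Those called lower numbered 4 after median-of-ratios rescaling, 2 without the filter, 2 after quantile normalization and 0 after scaling to the spike-ins. The nuclear median was 0.16 after median-of-ratios rescaling and 0.16 after quantile normalization, and the log2 ratio of nuclear sums was 0.17 after median-of-ratios rescaling, where it was 0.28 as deposited. Quantile normalization put 2 mitochondrial genes on the higher side. The mitochondrial genes called lower ranged from 4 to 8 when single libraries were left out, with 4 without mex>PGRP-LE library 2 and 4 without mex>+ library 3, and were 4 without replicate 2 of both groups. A fit with the replicate block gave 48 nuclear genes higher, 1 lower and 6 mitochondrial genes lower, as mt:ND1 and mt:ND5 lost their calls and mt:ND6 gained one. The causes were not tested, apart from the fewer libraries where some were left out. Shares of all tested genes are given above for the main fit and for median-of-ratios, quantile and spike-in scaling, and for no other alternative. The unknown depth leaves the precision of the genes near 1 TPM unmeasured beyond the spread of the libraries.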
